A study of Mus musculus with 36 samples.

Results

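Lysosomal hydrolases and membrane proteins are the enzymes, helper proteins and membrane components of the acid compartment in which cells break down sugars, lipids, proteins and glycosaminoglycans. A set of 37 genes was taken by gene symbol from a table of 36172 gene entries, cathepsins not included, and all 37 passed the filter on low counts. By role the set held 10 glycosidases, mostly of glycolipids and glycoproteins, 8 enzymes of glycosaminoglycan breakdown and 4 enzymes of lipid breakdown. It also held 4 activators and soluble co-factors, 3 proteins of the neuronal ceroid lipofuscinoses and 8 further membrane proteins. Gaa, which degrades glycogen, was placed with the glycosidases. The membrane proteins Cln3 and Hgsnat were placed with the lipofuscinosis and glycosaminoglycan groups.

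PolyA RNA was sequenced from the hippocampus of mice of both sexes whose genotype is labelled Cx3cr1-NuTRAP. In this model a tamoxifen-inducible cre, driven by the promoter of the microglial and macrophage gene Cx3cr1, turns on a tag on ribosomes, and RNA on tagged ribosomes is pulled down with an antibody to GFP, a method abbreviated TRAP (translating ribosome affinity purification). The question behind the series was how the age of induction affects the performance of the model. All animals carried the same genotype and were induced, so no group is free of cre or of tamoxifen induction.

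The young inputs came from 10 animals of 6 months with early induction (5 females, 5 males). The old early inputs came from 12 animals of 22 months with early induction (7 females, 5 males), and the old late inputs from 7 animals of 22 months with late induction (5 females, 2 males). An input is the cleared tissue homogenate set aside before the pulldown, labelled whole tissue. The 7 TRAP libraries, labelled microglia, were made from the homogenates of these 7 old late-induced mice, and TRAP libraries of the other groups were not analysed here. The labels give no induction ages, so the age at induction and the time since induction cannot be told apart. A cre driven by the Cx3cr1 promoter is not limited to parenchymal microglia, since macrophages at the borders of the brain also use it.

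Most lysosomal enzymes are made as precursors, tagged with mannose 6-phosphate in the Golgi and carried to the lysosome by sorting receptors. Microglia, the phagocytes of the brain, are rich in lysosomes, and loss of many of these genes causes storage diseases of the nervous system. The transcription factor TFEB and its relatives activate many lysosomal genes through a short palindromic element.

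The 36 libraries held 12.9 to 20.45 M estimated counts, which limits the precision of low genes, and chi-square values per degree of freedom of 3.8 to 51.12 between libraries of a group showed no duplicate. Index numbers in the library titles run in separate blocks for the old early, old late and young animals, so that any effect of this order and the group cannot be told apart. Summed levels of 12 microglial markers lay between 6762 and 9852 CPM (estimated counts per 1 M of TMM-scaled library size) in TRAP, against 356 to 450 CPM in the old late inputs, and all 12 were called higher. The 6 markers of border macrophages (90.1 to 206 CPM in TRAP, 6.45 to 16.2 CPM in the old late inputs) and the 6 of endothelial cells (155 to 248 CPM, against 61.3 to 93.3 CPM) were also called higher. All 9 oligodendrocyte markers, 6 of 7 astrocyte markers and 4 of 8 tested neuronal markers were called lower. Their summed levels in TRAP were 1296 to 3245, 2466 to 3749 and 7607 to 9086 CPM. In the old late inputs these sums were 4133 to 6922, 3345 to 4177 and 9228 to 10208 CPM. The median log2 fold changes were -1.33, -0.49 and -0.17, so the neuronal markers were only slightly lower in TRAP. The neuronal marker Map2 was listed at 0 throughout. Between ages, 11 of 12 microglial markers were called higher in old early inputs and 12 in old late inputs, with medians of 0.30 and 0.39 on the log2 scale. The 9 oligodendrocyte markers (8 and 9 called higher) and 4 tested blood markers (2 and 4 called higher) also shifted with age, with oligodendrocyte sums of 3031 to 4694 CPM in young, 3866 to 5654 in old early and 4133 to 6922 in old late inputs, and blood sums of 143 to 346, 130 to 2274 and 275 to 719 CPM. Of the 7 astrocyte, 6 endothelial and 4 mural markers, 2 of each list were called higher in each age comparison. Of 8 tested neuronal markers, 1 was called higher in old early inputs and 3 lower in old late inputs. Of 6 border macrophage markers, 0 were called in old early inputs, and 1 was higher and 1 lower in old late inputs. The part of these shifts in the members' differences was not tested.

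The promoters of the members were read from RefSeq (build GRCm38.p6), over the 250 bases before each listed transcription start. Entries were found for 32 members. The members without an entry were Npc1, Galns, Hgsnat, Asah1 and Aga. The letters TCACGTG, on either strand (CACGTGA on the reverse strand), form the core of the element bound by TFEB and stood in the promoters of 9 of 32 members (Arsa, Cln3, Gaa, Gla, Glb1, Lamp1, Mcoln1, Naglu and Sgsh), against 3.58% of all 27025 genes and 3.13% of all 32851 promoters. The full palindrome TCACGTGA, which overlaps it, stood in 3 members (Cln3, Gla and Mcoln1), against 0.785% of all promoters. The shorter CACGTG stood in 6.02% of promoters and in the same 9 members. The stretches below are shown because the first 5 hold this element and the last 2 belong to the members most enriched by TRAP; capitals mark the matching letters.

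Lamp1, chr8:13159079-13159132, plus strand, the first 2 of 4 matches in this promoter: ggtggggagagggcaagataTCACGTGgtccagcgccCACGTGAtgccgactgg
Gla, chrX:134601182-134601211, minus strand: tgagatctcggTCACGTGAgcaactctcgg
Mcoln1, chr8:3500462-3500491, plus strand: aggcgccccgcTCACGTGAccgcggcgcat
Cln3, chr7:126583340-126583369, minus strand: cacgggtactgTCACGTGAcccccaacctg
Naglu, chr11:101070009-101070037, plus strand: caaccttcaggTCACGTGgcccgaggtcg
Laptm5, chr4:130913066-130913124, plus strand: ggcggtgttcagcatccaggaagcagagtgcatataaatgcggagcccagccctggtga
Cd68, chr11:69666171-69666270, minus strand: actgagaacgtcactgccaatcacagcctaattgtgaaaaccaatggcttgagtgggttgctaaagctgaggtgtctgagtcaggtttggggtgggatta

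Gla, Mcoln1 and Cln3 each hold 2 matches in 1 promoter, of which 1 is shown. The Gla match shown lies in an annotated exon of Hnrnph2 on the other strand. Those shown for Mcoln1 and Cln3 lie in exons that GENCODE gives to these genes upstream of the RefSeq start. Of the 29 bases shown for Naglu, 26 lie in such an exon of Naglu. Neither Laptm5 nor Cd68 held TCACGTG in this window. A match describes the letters alone and gives no measure of binding.

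TRAP was compared with input in the 7 old late-induced animals to see which members the tagged cells carry. Of the 37 members, 33 were called by edgeR (adjusted p under 0.05 over 14596 genes), 31 higher and 2 lower in TRAP. Over all genes tested, 30.4% were called higher and 28.8% lower. The median log2 fold change was 1.08 for the members and -0.02 for all genes. Laptm5, Cd68, Man2b1, Grn, Hexa, Gusb, Npc2 and Naglu were enriched over 4-fold, whereas Ids and Tmem106b were lower and Gla, Gaa, Smpd1 and Mcoln1 were not called. In all 7 animals the TRAP value exceeded the animal's own input for 31 members, and it did so in 0 of 7 animals for Ids and Tmem106b. The ranges of the groups did not overlap for 31 of 37 members, where this held for 30.1% of all genes.

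**Figure D1:**
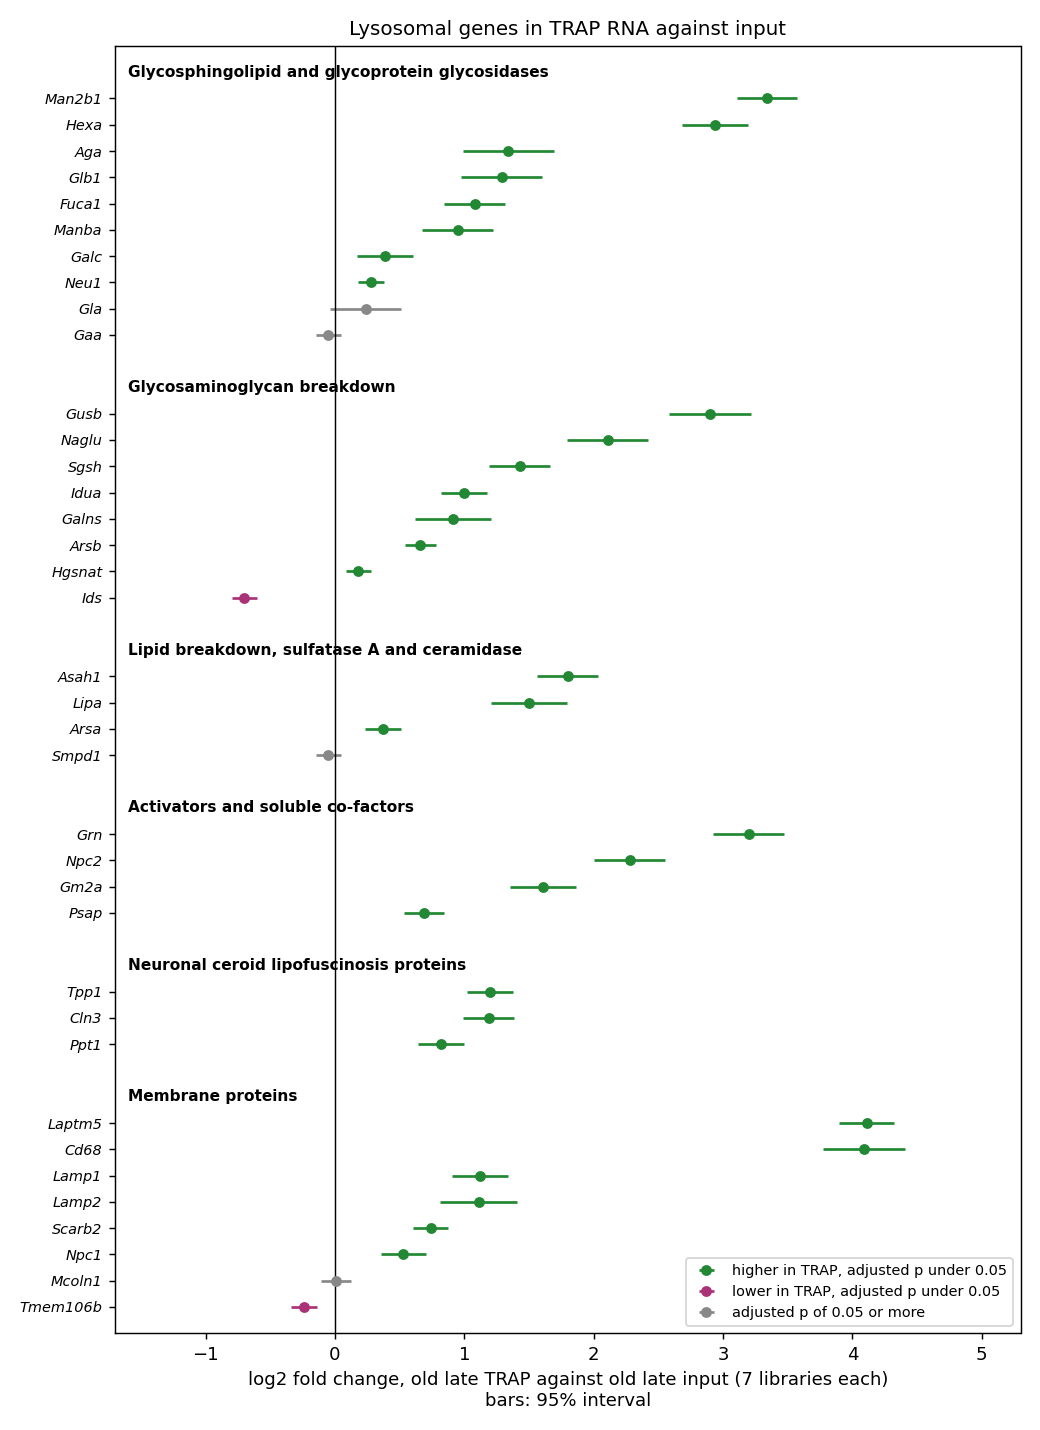
Log2 fold change of each of the 37 members in TRAP against input of the 7 old late-induced animals, grouped by role, with bars of the 95% interval and a line at 0. Laptm5 and Cd68 stand at the top with 4.11 and 4.09, and Ids stands lowest at -0.70.

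Age was compared in the inputs, which are whole tissue. Old early against young inputs differ in age alone among the labelled factors, and 13 members were called higher and 0 lower by edgeR, where 13% of all 14948 genes tested were called higher and 12.6% lower. The 13 were Hexa, Gla, Neu1, Man2b1, Gusb, Sgsh, Asah1, Gm2a, Grn, Npc2, Lamp1, Cd68 and Laptm5. Without adjustment, 21 members had a p under 0.05 (20 higher, 1 lower), as did 37.7% of all genes. Old late against young inputs differ in age and in induction, and here 19 members were called higher and 2, Galns and Tmem106b, lower, where 17% and 17.5% of all genes were called. Without adjustment 23 members had a p under 0.05 in that comparison (20 higher, 3 lower), as did 44% of all genes. Young and old ranges did not overlap for 3 members in old early inputs (Lamp1, Cd68 and Laptm5; 1.81% of all genes) and for 7 in old late inputs (these and Hexa, Man2b1, Grn and Npc2; 6.98% of all genes). The members' medians were 0.12 and 0.15, against 0.01 for all genes in both. Both age comparisons share the young inputs and are not independent. Females alone gave 6 and 12 members called higher in these comparisons (4.29% and 9.39% of all genes) and males alone 8 and 8 (7.38% and 4.06% of all genes), with fewer libraries in each fit. The old early calls lost were those of Asah1, Gla, Gm2a, Gusb, Hexa, Neu1, Npc2 and Sgsh in females alone and of Asah1, Gla, Man2b1, Neu1 and Sgsh in males alone. In old late inputs the calls of Fuca1, Galns, Gla, Lamp2, Manba, Naglu, Neu1, Psap, Smpd1 and Tmem106b were lost in both, and those of Grn, Gusb and Sgsh in males alone. In whole tissue, a change in the number of cells of a type and a change in RNA per cell cannot be told apart.

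The summed level of the 37 members was 4590 ± 116 CPM in young inputs (SD, n = 10), 4829 ± 138 in old early inputs (SD, n = 12), 5002 ± 112 in old late inputs (SD, n = 7) and 11343 ± 2294 in TRAP (SD, n = 7). Psap alone made up 39.1% of this sum in young inputs, 38.8% in old early inputs, 38.9% in old late inputs and 28.1% in TRAP. Per kilobase of exon, the highest mean levels in young inputs were those of Psap (655 CPM per kb), Lamp1 (138), Gaa (106) and Ids (87). The order in TRAP was Psap (1152 CPM per kb), Laptm5 (480), Lamp1 (365), Grn (357) and Hexa (341). Laptm5, Grn and Hexa thus stood above Gaa (104 CPM per kb) and Ids in TRAP, while Gaa and Ids stood above them in young inputs.

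**Figure D2:**
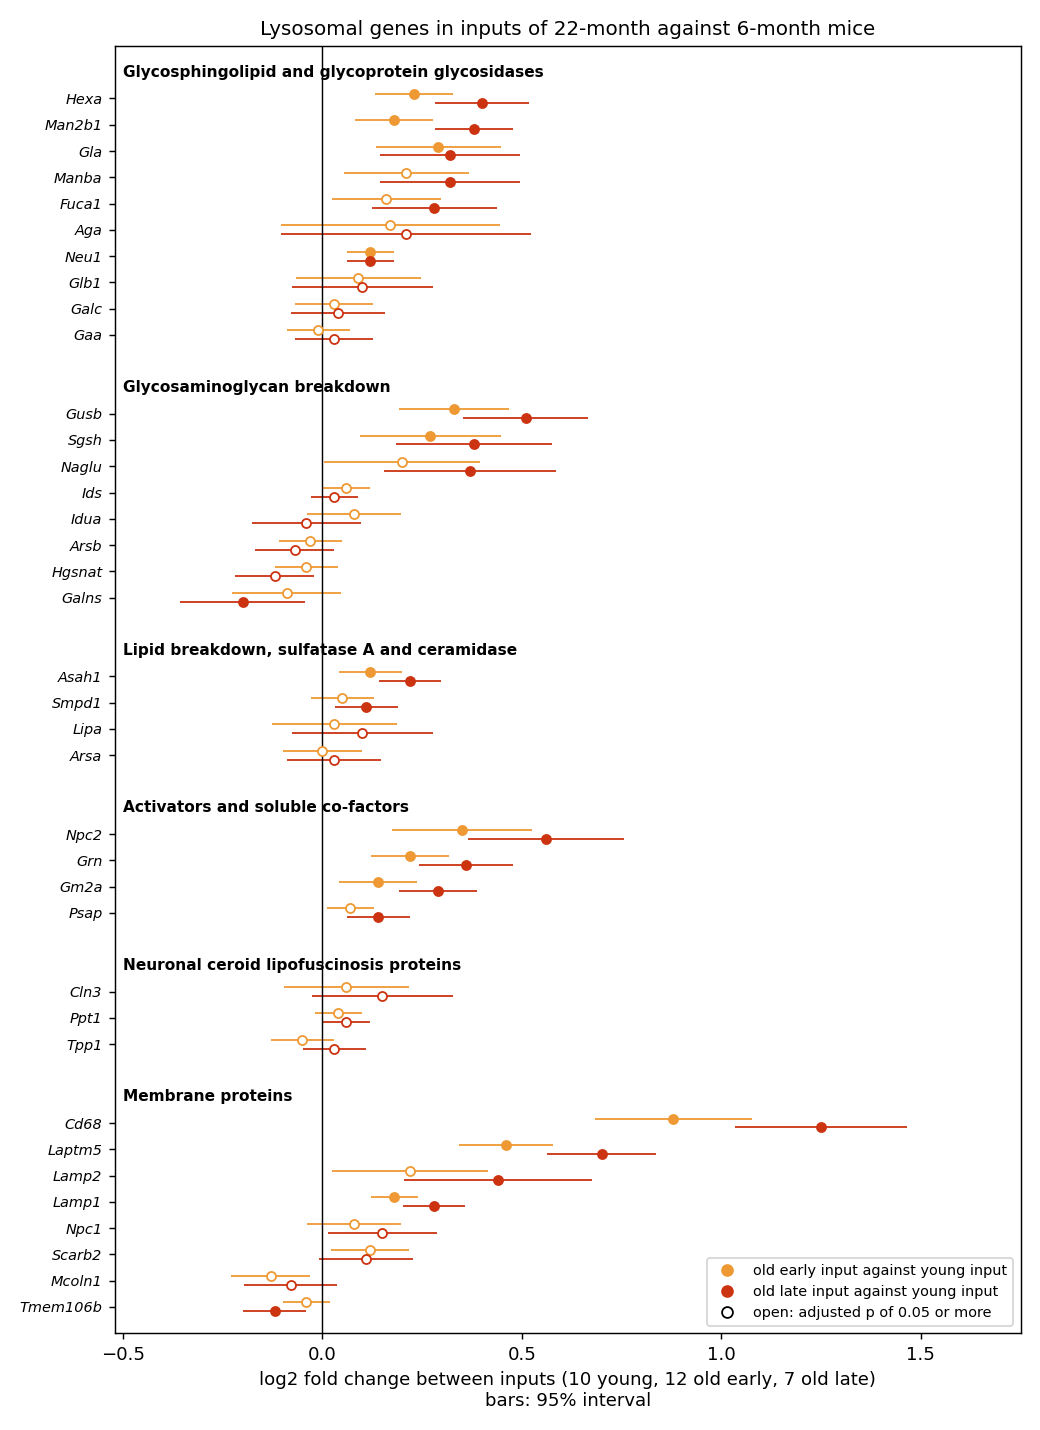
Log2 fold change of the 37 members in old early against young inputs and in old late against young inputs, by role, with bars of the 95% interval; open symbols were not called at an adjusted p under 0.05. Cd68 lies farthest right in both comparisons, at 0.88 and 1.25.

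Among the 10 glycosidases, 8 were called higher in TRAP (median 1.02), 4 in old early inputs (median 0.16) and 6 in old late inputs (median 0.25). None was called lower. Hexa encodes an enzyme subunit needed to degrade ganglioside GM2. Its level ran from 63.1 to 73 CPM in young inputs (median 67.1), 67 to 94.8 in old early inputs (median 76.9), 79.4 to 98.4 in old late inputs (median 83.5) and 503 to 985 in TRAP (median 634). Every old late input lay above every young input, and every TRAP library above every input. By edgeR the log2 fold change of Hexa was 2.94 ± 0.13 (SE) in TRAP (adjusted p = 3.68e-12), 0.23 ± 0.05 in old early inputs (adjusted p = 0.00121) and 0.40 ± 0.06 in old late inputs (adjusted p = 5.58e-06).

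Man2b1, the lysosomal alpha-mannosidase that trims glycoprotein sugars, ran from 44.3 to 58.2 CPM in young inputs (median 54.7), 55.9 to 67.6 in old early inputs (median 60.7), 62.4 to 77.3 in old late inputs (median 67.6) and 513 to 1030 in TRAP (median 663). Only the old late inputs and TRAP were clear of the young range. Its TRAP enrichment was 3.34 ± 0.12 on the log2 scale or 10.1-fold (edgeR, adjusted p = 2.97e-13), and the animals' own ratios lay between 8.22 and 13.3. With age it rose by 0.18 ± 0.05 in old early inputs (edgeR, adjusted p = 0.00486) and by 0.38 ± 0.05 in old late inputs (adjusted p = 3.57e-06).

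Gla, the alpha-galactosidase that removes terminal galactose from globotriaosylceramide, showed a different order. It ran from 8.94 to 15.5 CPM in young inputs (median 12.1), 13.4 to 16.9 in old early inputs (median 14.9), 12.3 to 17.3 in old late inputs (median 15.9) and 11.4 to 24.5 in TRAP (median 16.4). TRAP and input ranges overlapped, and TRAP exceeded input in 4 of 7 animals. Gla was not called in TRAP (0.24 ± 0.14, edgeR, adjusted p = 0.155), but it rose in old early inputs by 0.29 ± 0.08 (adjusted p = 0.00438) and in old late inputs by 0.32 ± 0.09 (adjusted p = 0.00446).

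The remaining glycosidases covered a wide span. Gaa, which degrades glycogen, had medians of 436, 428 and 435 CPM in young, old early and old late inputs and 420 CPM in TRAP, and was called in none of these comparisons, although upper quartile scaling and library size alone called it lower in TRAP. Neu1, the lysosomal sialidase, was called higher in all of them, by 0.28 ± 0.05 in TRAP (edgeR, adjusted p = 6.88e-05), and by 0.12 ± 0.03 in both old early (adjusted p = 0.00338) and old late inputs (adjusted p = 0.00593). Manba (beta-mannosidase, 0.95) and Fuca1 (alpha-fucosidase, 1.08) were higher in TRAP and higher in old late inputs (0.32 and 0.28). The log2 fold changes of these 2 genes in old early inputs, 0.21 and 0.16, missed the threshold (edgeR, adjusted p = 0.0553 and 0.0753). Glb1 (beta-galactosidase, 1.29), Galc (which degrades galactolipids of myelin, 0.39) and Aga (which cleaves the sugar link of glycoproteins, 1.34) were higher in TRAP, Galc not with upper quartile scaling, and not called with age. Glb1 overlaps Tmppe on the same strand, which itself averaged 440.2 counts, so the division of reads between them is uncertain.

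Of the 8 enzymes of glycosaminoglycan breakdown, 7 were called higher and 1 lower in TRAP (median 0.95), 2 higher in old early inputs (median 0.07), and 3 higher and 1 lower in old late inputs (median -0.00). Gusb, the beta-glucuronidase, was the most enriched of them. It ran from 11.4 to 16.5 CPM in young inputs (median 13), 13.6 to 19.6 in old early inputs (median 17.1), 16.4 to 23.2 in old late inputs (median 17.9) and 87.8 to 220 in TRAP (median 151). The lowest old late input stood just under the highest young input, and TRAP was clear of all inputs. Gusb was 7.46-fold higher in TRAP (2.90 ± 0.16, edgeR, adjusted p = 5.51e-11), and it rose by 0.33 ± 0.07 in old early inputs (adjusted p = 0.00097) and by 0.51 ± 0.08 in old late inputs (adjusted p = 1.96e-05).

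Sgsh, Naglu and Hgsnat act in the breakdown of heparan sulfate and differed from each other. Sgsh, the sulfamidase, ran from 7.73 to 11.3 CPM in young inputs (median 8.64), 8.39 to 13.5 in old early inputs (median 10.7), 9.01 to 14.4 in old late inputs (median 11.8) and 16.1 to 44.5 in TRAP (median 31). The input groups overlapped. Sgsh was called higher in TRAP by 1.43 ± 0.12 (edgeR, adjusted p = 2e-08), in old early inputs by 0.27 ± 0.09 (adjusted p = 0.021; 0.05 and not called without young replicate 9) and in old late inputs by 0.38 ± 0.10 (adjusted p = 0.00409). Naglu, the alpha-N-acetylglucosaminidase, was 4.31-fold higher in TRAP (2.11 ± 0.16, edgeR, adjusted p = 8.62e-09) and 0.37 ± 0.11 higher in old late inputs (adjusted p = 0.0092), while its 0.20 ± 0.10 in old early inputs was not called (adjusted p = 0.121). Hgsnat, a membrane acetyltransferase, ran from 49.2 to 56.7 CPM in young inputs (median 53.8), 42.3 to 60.3 in old early inputs (median 52.8), 45.5 to 50.4 in old late inputs (median 49.7) and 51.9 to 60.2 in TRAP (median 55.6). TRAP and old late inputs did not overlap, although the gap was small, and edgeR called Hgsnat higher in TRAP by 0.18 ± 0.05 (adjusted p = 0.00261), a call lost with upper quartile scaling and with library size alone. In old late against young inputs Hgsnat was -0.12 ± 0.05 (edgeR, adjusted p = 0.053), and it was called lower in 13 of 29 fits that each left out 1 library.

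Ids, the sulfatase that acts on iduronate residues, went the other way in TRAP. It ran from 409 to 466 CPM in young inputs (median 430), 411 to 507 in old early inputs (median 455), 422 to 467 in old late inputs (median 441) and 253 to 299 in TRAP (median 272). All TRAP libraries lay below all inputs, with ratios within animals of 0.549 to 0.664. Ids was lower in TRAP by edgeR (-0.70 ± 0.05, adjusted p = 7.22e-10) and was not called with age (0.06 and 0.03, adjusted p = 0.077 and 0.464). Its partner enzyme Idua, the iduronidase, was 1.00 ± 0.09 higher in TRAP (edgeR, adjusted p = 6.79e-08), at 22 to 37.4 CPM against 13.4 to 17 in old late inputs, and was not called with age. Readings of Idua and Sgsh may include reads of overlapping genes on the other strand (Slc26a1 and Card14, which averaged 19.72 and 44.95 counts), since strand handling is not given.

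Galns, which removes sulfate from keratan sulfate, ran from 8.82 to 11.6 CPM in young inputs (median 10.5), 8.26 to 12 in old early inputs (median 9.88), 7.92 to 11.2 in old late inputs (median 9.09) and 12.3 to 25.8 in TRAP (median 15.9). The inputs overlapped widely. Galns was higher in TRAP (0.91 ± 0.15, edgeR, adjusted p = 5.72e-05), was -0.09 ± 0.07 in old early inputs (adjusted p = 0.356), and was called lower in old late inputs (-0.20 ± 0.08, adjusted p = 0.0401). That last call was lost in 9 of 29 fits that each left out 1 library (adjusted p up to 0.0929) and with upper quartile scaling. Arsb, a sulfatase of dermatan and chondroitin sulfate, was 0.66 ± 0.06 higher in TRAP (edgeR, adjusted p = 3.58e-08) and not called with age.

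The 4 enzymes of lipid breakdown gave 3 calls in TRAP, all higher (median 0.94), 1 in old early inputs (median 0.04) and 2 in old late inputs (median 0.11), again all higher. Asah1, the acid ceramidase, was 3.49-fold higher in TRAP (1.80 ± 0.12, edgeR, adjusted p = 1.62e-09). It rose by 0.12 ± 0.04 in old early inputs (edgeR, adjusted p = 0.0202; lost without young replicate 8, adjusted p = 0.0611) and by 0.22 ± 0.04 in old late inputs (adjusted p = 0.000271). Lipa, the acid lipase that frees cholesterol from its esters, was higher in TRAP (1.50 ± 0.15, edgeR, adjusted p = 2.61e-07), at 44.4 to 93.5 CPM against 18.7 to 27.7 in old late inputs. It was not called with age (0.03 and 0.10, adjusted p = 0.801 and 0.401). Arsa, the sulfatase that acts on sulfatide, was 0.37 ± 0.07 higher in TRAP (edgeR, adjusted p = 0.000202) and had input medians of 37.7, 37.9 and 40 CPM.

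Smpd1, the acid sphingomyelinase, was the member of this group that TRAP did not enrich. It ran from 108 to 123 CPM in young inputs (median 114), 108 to 129 in old early inputs (median 118), 107 to 134 in old late inputs (median 125) and 114 to 123 in TRAP (median 120). All 4 ranges overlapped. Smpd1 was -0.05 ± 0.05 in TRAP (edgeR, adjusted p = 0.359), but it was called lower, by -0.20 and -0.16, when upper quartile scaling or library size alone was used. Its call in old late inputs (0.11 ± 0.04, edgeR, adjusted p = 0.041) was lost in 18 of 29 fits that each left out 1 library.

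The activators and soluble co-factors Psap, Gm2a, Grn and Npc2 were all called higher in TRAP (median 1.95) and in old late inputs (median 0.32), and 3 of 4 in old early inputs (median 0.18). Psap is the precursor of the saposins, which present lipids to hydrolases. It was the most abundant member and ran from 1720 to 1902 CPM in young inputs (median 1779), 1770 to 2222 in old early inputs (median 1841), 1830 to 2057 in old late inputs (median 1946) and 2582 to 3915 in TRAP (median 2880). Every TRAP library exceeded every input, though by less than 2-fold in most animals (ratios of 1.33 to 2.14 within animals, median 1.45). Psap was 0.69 ± 0.08 higher in TRAP (edgeR, adjusted p = 1.88e-06), 0.07 ± 0.03 in old early inputs (adjusted p = 0.0932, not called) and 0.14 ± 0.04 in old late inputs (adjusted p = 0.0047; 0.07 ± 0.03 and adjusted p = 0.129 in females alone, 0.23 ± 0.07 and adjusted p = 0.0533 in males alone).

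Grn encodes progranulin, a secreted and lysosomal protein whose loss causes dementia or lipofuscinosis. It ran from 63.6 to 76 CPM in young inputs (median 68.4), 67.2 to 87.9 in old early inputs (median 81.1), 77.5 to 106 in old late inputs (median 88.2) and 566 to 1215 in TRAP (median 808). All old late inputs lay above the young range, and TRAP lay far above all inputs. Grn was 9.2-fold higher in TRAP (3.20 ± 0.14, edgeR, adjusted p = 3.19e-12), and it rose by 0.22 ± 0.05 in old early inputs (adjusted p = 0.00105) and by 0.36 ± 0.06 in old late inputs (adjusted p = 1.17e-05; 0.22 ± 0.08 and adjusted p = 0.106 in males alone).

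Npc2, the soluble carrier that hands cholesterol to Npc1, ran from 57.8 to 83.3 CPM in young inputs (median 69), 73.9 to 135 in old early inputs (median 82.9), 87 to 122 in old late inputs (median 102) and 365 to 697 in TRAP (median 480). Its old late inputs were all above the young range, and 1 old early input reached 135 CPM. Npc2 was 4.87-fold higher in TRAP (2.28 ± 0.14, edgeR, adjusted p = 3.82e-10), 0.35 ± 0.09 in old early inputs (adjusted p = 0.00402; 0.16 ± 0.09 and adjusted p = 0.332 in females alone) and 0.56 ± 0.10 in old late inputs (adjusted p = 0.000103). Gm2a, the activator that presents ganglioside GM2 for degradation, was higher by 1.61 ± 0.13 in TRAP (edgeR, adjusted p = 2.08e-08), 0.14 ± 0.05 in old early inputs (adjusted p = 0.0272) and 0.29 ± 0.05 in old late inputs (adjusted p = 0.000117). The old early call of Gm2a was lost in 5 of 29 fits that each left out 1 library (adjusted p up to 0.0752).

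All 3 proteins of the neuronal ceroid lipofuscinoses were higher in TRAP (median 1.19), and none was called with age (medians 0.04 and 0.06). Tpp1, a tripeptidyl peptidase, ran from 50.1 to 60.3 CPM in young inputs (median 55.7), 48.8 to 58.9 in old early inputs (median 53.6), 52.3 to 61.5 in old late inputs (median 56.5) and 105 to 169 in TRAP (median 128). Its TRAP enrichment of 1.20 ± 0.09 (edgeR, adjusted p = 3.21e-09) stood beside age differences of -0.05 ± 0.04 and 0.03 ± 0.04 (adjusted p = 0.402 and 0.601). Cln3, a lysosomal membrane protein, was 1.19 ± 0.10 higher in TRAP (edgeR, adjusted p = 3.38e-08), and Ppt1, which removes palmitate from proteins, was 0.82 ± 0.09 higher (adjusted p = 4.5e-07).

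Among the 8 members grouped as membrane proteins, TRAP gave 6 calls higher and 1 lower (median 0.92). In old early inputs 3 were called higher (median 0.15), and in old late inputs 4 higher and 1 lower (median 0.21). Cd68, also called macrosialin, is a LAMP family protein of macrophages and microglia. It was scarce in whole tissue, at 4.35 to 5.73 CPM in young inputs (median 5.13), 7.93 to 12.5 in old early inputs (median 9.61), 7.96 to 18.4 in old late inputs (median 13.6) and 135 to 330 in TRAP (median 215). No old input overlapped the young inputs, the old late inputs spread the widest of the input groups, and TRAP replicates 3 and 5 were highest with 326 and 330 CPM. Cd68 was 17.1-fold higher in TRAP (4.09 ± 0.16, edgeR, adjusted p = 7e-13), and it rose 1.84-fold in old early inputs (0.88 ± 0.10, adjusted p = 2.04e-07) and 2.38-fold in old late inputs (1.25 ± 0.11, adjusted p = 3.09e-09).

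Laptm5, a lysosomal transmembrane protein of blood-lineage cells, ran from 36 to 51.3 CPM in young inputs (median 44.6), 53.5 to 71.8 in old early inputs (median 61.5), 58.3 to 85.4 in old late inputs (median 71.1) and 987 to 1675 in TRAP (median 1186). Like Cd68, no old input overlapped the young inputs. Laptm5 was 17.2-fold higher in TRAP (4.11 ± 0.11, edgeR, adjusted p = 1.16e-14), with ratios of 15.3 to 20.1 within animals. It rose by 0.46 ± 0.06 in old early inputs (edgeR, adjusted p = 4.15e-06) and by 0.70 ± 0.07 in old late inputs (adjusted p = 2.78e-08).

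Lamp1 and Lamp2 encode the main glycoproteins of the lysosomal membrane. Lamp1 ran from 291 to 325 CPM in young inputs (median 305), 329 to 389 in old early inputs (median 342), 336 to 399 in old late inputs (median 367) and 638 to 1106 in TRAP (median 724). Young and old inputs did not overlap, although the gap to the lowest old early input was small. Lamp1 was 2.17-fold higher in TRAP (1.12 ± 0.11, edgeR, adjusted p = 2.05e-07), and it rose by 0.18 ± 0.03 in old early inputs (adjusted p = 5.3e-05) and by 0.28 ± 0.04 in old late inputs (adjusted p = 7.97e-07). Lamp2 ran from 49.5 to 80 CPM in young inputs (median 60.9), 57.1 to 89.6 in old early inputs (median 69), 61.3 to 96.4 in old late inputs (median 84.3) and 131 to 258 in TRAP (median 162). Its input groups overlapped widely, and its enrichment within animals spanned 1.41 to 4.21. Lamp2 was 2.16-fold higher in TRAP (1.11 ± 0.15, edgeR, adjusted p = 8.12e-06), 0.22 ± 0.10 in old early inputs (adjusted p = 0.121, not called) and 0.44 ± 0.12 in old late inputs (adjusted p = 0.00511).

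Npc1, the membrane protein that exports cholesterol from the lysosome, ran from 65.5 to 79.1 CPM in young inputs (median 72.7), 57.7 to 92.7 in old early inputs (median 78.9), 75.7 to 93.8 in old late inputs (median 79.2) and 93.6 to 168 in TRAP (median 114). TRAP and the old late inputs overlapped only between 93.6 and 93.8 CPM. Npc1 was 0.53 ± 0.09 higher in TRAP (edgeR, adjusted p = 0.000142), far below the 2.28 of its partner Npc2, and was not called with age (0.08 ± 0.06 and 0.15 ± 0.07, adjusted p = 0.332 and 0.0897), although upper quartile scaling called it higher in old late inputs. It overlaps 3110002H16Rik on the other strand, which averaged 372.3 counts, so its level is uncertain.

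Mcoln1, the lysosomal cation channel TRPML1, ran from 49.9 to 58 CPM in young inputs (median 55.5), 35.6 to 54.1 in old early inputs (median 50.8), 45.3 to 58 in old late inputs (median 50.7) and 48.4 to 56 in TRAP (median 51.1). TRAP and input levels of Mcoln1 were alike in range, and edgeR gave 0.01 ± 0.06 (adjusted p = 0.896). In old early inputs its -0.13 ± 0.05 lay at the threshold (edgeR, adjusted p = 0.0505), and it was called lower in 12 of 29 fits that each left out 1 library and by DESeq2 (adjusted p = 0.0374). Scarb2, an integral protein of the lysosomal membrane that also acts as a sorting receptor, was 0.74 ± 0.07 higher in TRAP (edgeR, adjusted p = 1.99e-07) and not called with age (0.12 and 0.11, adjusted p = 0.0819 and 0.162).

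Tmem106b, a lysosomal membrane protein linked to frontotemporal dementia, ran from 192 to 208 CPM in young inputs (median 202), 169 to 217 in old early inputs (median 194), 171 to 196 in old late inputs (median 182) and 148 to 168 in TRAP (median 155). All TRAP libraries lay below the old late inputs, with ratios of 0.773 to 0.93 within animals. Tmem106b was lower in TRAP (-0.24 ± 0.05, edgeR, adjusted p = 0.000294) and in old late inputs (-0.12 ± 0.04, adjusted p = 0.0212; lost without old late replicate 6, adjusted p = 0.0526, and with upper quartile scaling, adjusted p = 0.0512). In old early inputs it was -0.04 ± 0.03 (edgeR, adjusted p = 0.482).

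**Figure D3:**
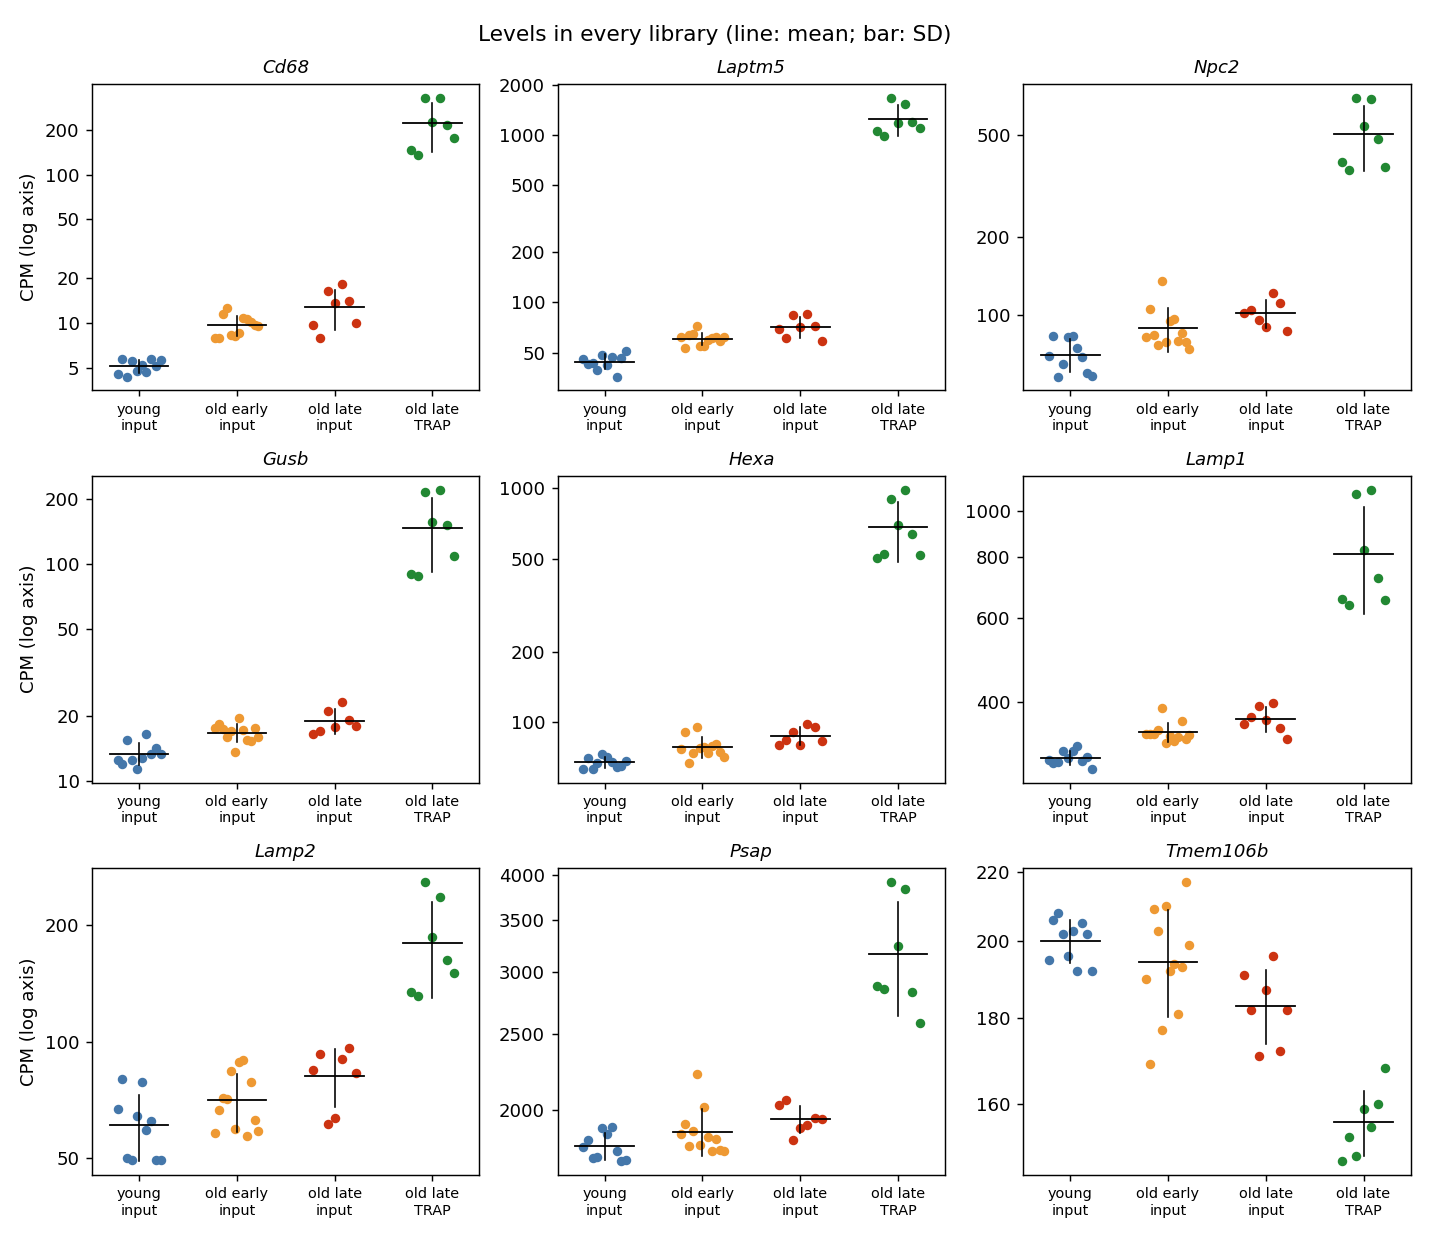
CPM of Cd68, Laptm5, Npc2, Gusb, Hexa, Lamp1, Lamp2, Psap and Tmem106b in each of the 36 libraries on log axes, with the mean as a line and the SD as a bar in each group. TRAP stands above all inputs for all of these except Tmem106b, whose TRAP libraries are lowest, and the old inputs of Cd68 and Laptm5 are clear of the young inputs.

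The TRAP enrichment of the members and their age difference in whole tissue tended to rise together, with exceptions. Gla was called higher in both age comparisons and not called in TRAP. Smpd1 was not called in TRAP either and was called higher in old late inputs. Galns was higher in TRAP and called lower in old late inputs. The old late calls of Smpd1 and Galns were unstable when 1 library was left out. Glb1, Aga, Lipa, Tpp1 and Cln3 had a TRAP log2 fold change between 1 and 2 and were not called with age. TRAP libraries and the old early and young inputs share no animal, so the values of TRAP against input can be set beside those of old early against young. Old late against young uses the same old late inputs as TRAP against input, so those 2 comparisons are not independent. Over the 37 members the 2 log2 fold changes had a Pearson r of 0.73 and a Spearman rho of 0.67 (0.69 and 0.64 over 36 members without Cd68). Genes are not independent replicates, and this is given as a description. Of the 8 members with a TRAP log2 fold change of 2 or more, 7 were called higher in old early inputs (median 0.28), the exception being Naglu, and 8 in old late inputs (median 0.45). Of the 11 members between 1 and 2, 4 were called higher in old early inputs (median 0.14) and 6 in old late inputs (median 0.22). Of the 18 members under 1, 2 (Gla and Neu1) were called higher in old early inputs. In old late inputs 5 of them were called higher and 2 (Galns and Tmem106b) lower. Their median was 0.04 in each. Over all genes, 40.2% of 669 genes with a TRAP log2 fold change of 2 or more were called higher in old early inputs (median 0.30), 18.3% of 689 between 1 and 2 (median 0.07) and 11.7% of 13082 under 1 (median -0.00). In old late inputs the shares of all genes called higher were 54.4%, 26.7% and 15.1% in the same order. The members followed an order that all genes showed. Naglu (2.11) and Fuca1 (1.08) stood just inside these limits and Idua (1.00) just under the lower one; with upper quartile scaling Naglu moved to the middle class and Fuca1, Lamp1 and Lamp2 to the lowest.

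**Figure D4:**
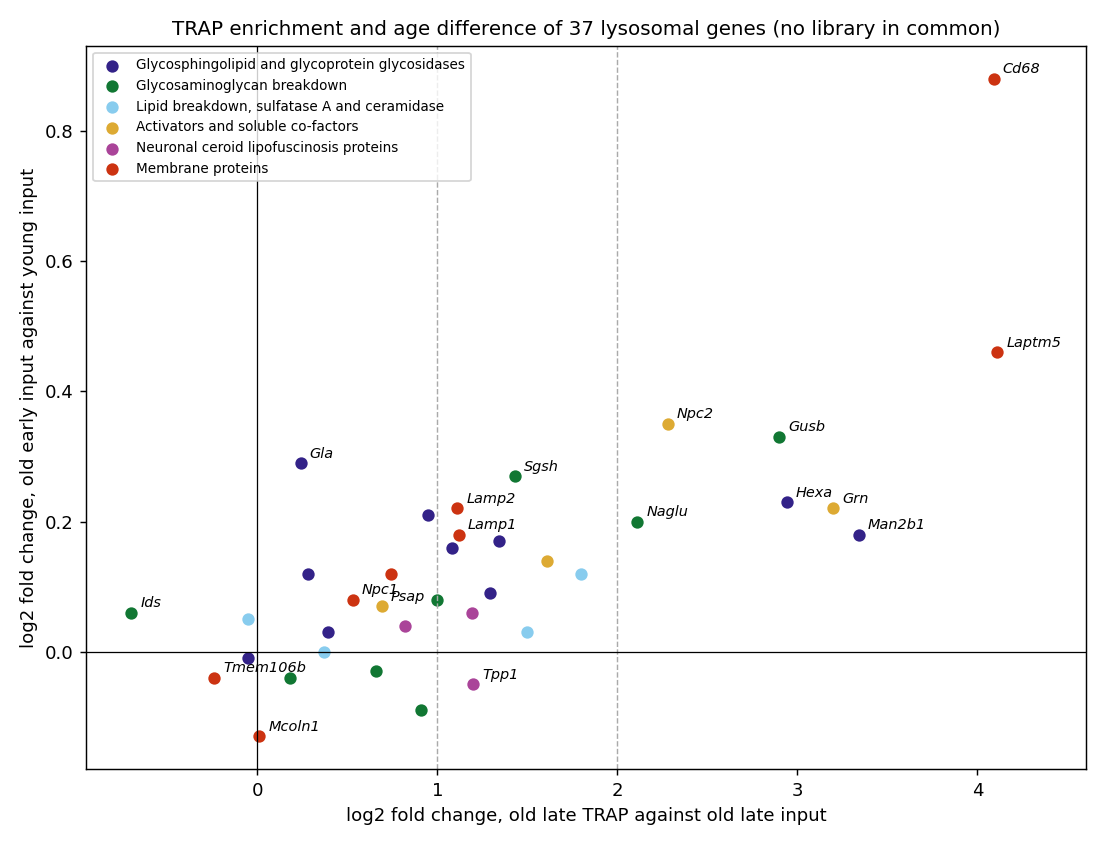
Log2 fold change in TRAP against input (x axis) and in old early against young inputs (y axis) for the 37 members, with dashed lines at 1 and 2 on the x axis. Cd68 lies at the upper right with 4.09 and 0.88, and Gla stands at 0.29 on the y axis with 0.24 on the x axis.

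The promoter element did not follow the same order. It was present in 1 of 8 members with a TRAP log2 fold change of 2 or more (Naglu), in 4 of 9 matched members between 1 and 2 (Glb1, Sgsh, Cln3 and Lamp1) and in 4 of 15 matched members under 1 (Gla, Gaa, Arsa and Mcoln1). Of the members that hold it, Gla, Sgsh and Lamp1 were called higher in old early inputs, and Gaa and Mcoln1 were called in neither age comparison nor in TRAP.

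Markers of the choroid plexus (Ttr, Folr1, Kl and Clic6), an epithelium next to the hippocampus, fell into separate ranges among the inputs. Their sum was 47 to 190 CPM in 14 inputs and 1670 to 4079 CPM in 15. The high range held 6 of 10 young, 4 of 12 old early and 5 of 7 old late inputs. Among females it held 4 of 5 young, 1 of 7 old early and 3 of 5 old late inputs. Among males it held 2 of 5, 3 of 5 and 2 of 2. Comparisons within 1 sex thus differ in this split as well as in age. In TRAP the sum was 24.4 to 1216 CPM. Lamp2 followed this split without overlap in young and old late inputs: it was 49.5 to 50.2 CPM in the 4 young inputs of the low range and 59.3 to 80 in the 6 of the high range. In old late inputs Lamp2 was 61.3 to 63.6 CPM in the 2 libraries of the low range and 83.1 to 96.4 in the 5 of the high range. The ranges of Lamp2 overlapped in old early inputs, at 57.1 to 78.9 CPM in the 8 libraries of the low range and 66.8 to 89.6 in the 4 of the high range. Npc2 was 57.8 to 64.9 against 68.8 to 83.3 CPM in young inputs and 73.9 to 85 against 94.6 to 135 in old early inputs, but it overlapped in old late inputs (89.8 to 95.3 against 87 to 122). Psap was 1720 to 1738 against 1769 to 1902 CPM in young inputs and 1830 to 1893 against 1913 to 2057 in old late inputs, and it overlapped in old early inputs (1770 to 1877 against 1846 to 2222). Cd68 overlapped between the low and high ranges in all 3 groups, with medians of 5.32 against 4.94 CPM in young, 9.91 against 8.4 in old early and 15 against 9.93 in old late inputs. Other members also split without overlap in 1 group. In old late inputs, with 2 libraries against 5, Galc, Gla, Manba, Lipa, Asah1, Smpd1 and Tpp1 were higher in the high range. Npc1 was lower there (75.7 to 80.6 against 86.1 to 93.8 CPM). Fuca1 was higher in the high range of old early inputs (47.7 to 56.2 against 38.5 to 45.5 CPM). The share of all genes with such a split is not given here. What sets the marker level of a library was not tested.

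With the mean log2 CPM of these 4 markers as a covariate, a fit chosen after seeing the data, 18 members were called higher and 1 lower in old early inputs by edgeR, where 16% of all genes were called higher and 15.1% lower. The 13 members called without the covariate kept their calls. Lamp2 was added at 0.31 ± 0.06 (edgeR, adjusted p = 7.59e-05), with Psap at 0.09 ± 0.02 (adjusted p = 0.00288), Fuca1 at 0.20 (adjusted p = 0.0054), Manba at 0.24 (adjusted p = 0.0184) and Naglu at 0.24 (adjusted p = 0.0256). Mcoln1 was called lower (-0.14 ± 0.05, edgeR, adjusted p = 0.0248). In old late against young inputs all 21 calls were kept and Npc1 was added (0.17, adjusted p = 0.0213), where 17.8% of all genes were called higher and 17.6% lower, while Lamp2 moved from 0.44 to 0.37. Among females alone, Npc2, Gla and Lamp2 were called higher in old early inputs only with the covariate. Grn, Lamp1 and Scarb2 were called there only without it.

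**Figure D5:**
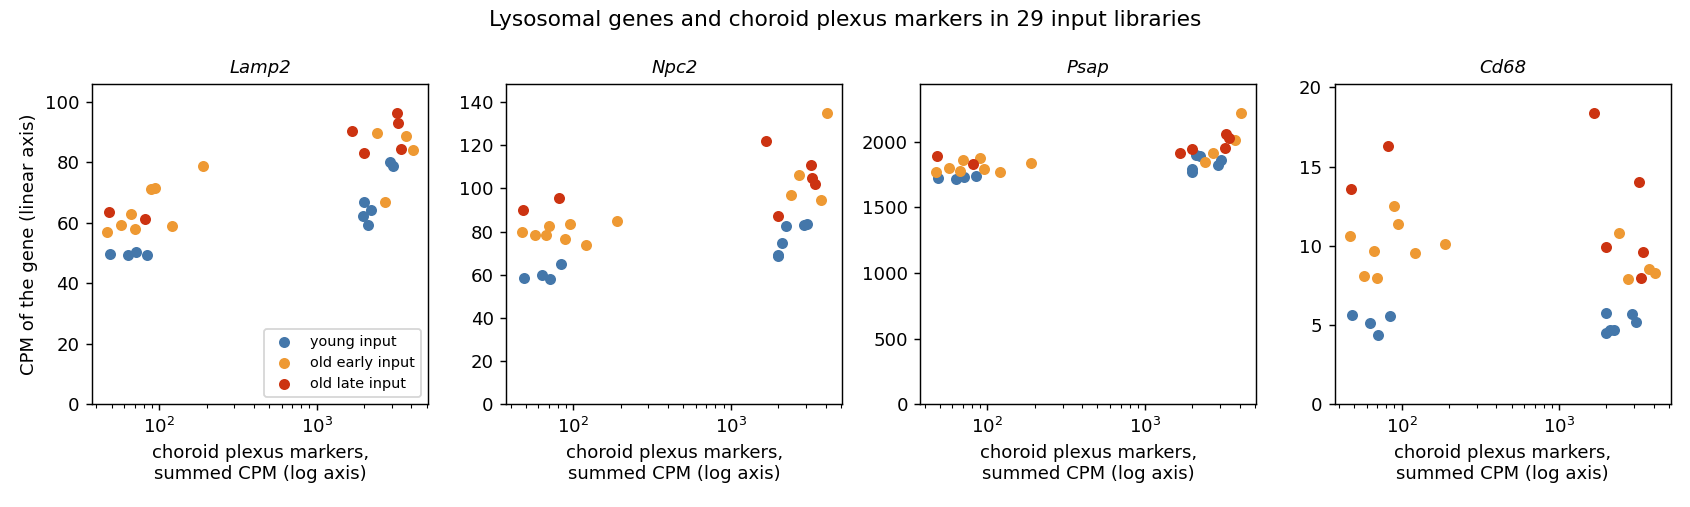
CPM of Lamp2, Npc2, Psap and Cd68 in each of the 29 inputs against the summed CPM of the choroid plexus markers, on a log x axis, with each group in its own colour. The libraries fall at 47 to 190 CPM and at 1670 to 4079 CPM on the x axis; most libraries of a group have higher Lamp2, Npc2 and Psap on the right, while Cd68 separates by age on both sides.

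Old late inputs were compared with old early inputs, animals of the same age that differ in induction. Age at induction, time since induction and the order of the index numbers cannot be told apart in this comparison. By edgeR 0 of 37 members were called, where 0.0334% of all genes were called in either direction. Without adjustment 11 members had a p under 0.05 (10 higher in old late inputs, 1 lower), as did 11.6% of all genes, the median was 0.07, DESeq2 called 1 member (Man2b1) and limma voom 0. Ranges of all 37 members overlapped between these groups, and 0.0201% of all genes had ranges that did not. The smallest adjusted p was that of Man2b1 (0.125), with a log2 difference of 0.20 ± 0.05 and a 95% interval of 0.10 to 0.30. Cd68 followed with 0.37 ± 0.11 (interval 0.17 to 0.58, edgeR, adjusted p = 0.181). Without old early replicate 5, the input with the highest sums of blood markers (2274 CPM) and of choroid plexus markers (4079 CPM), Hexa and Laptm5 were called higher in old late inputs (edgeR, adjusted p = 0.0473 and 0.0429).

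Males and females were compared across all inputs with group in the model. Among the members 0 were called by edgeR, DESeq2 or limma voom, where edgeR called 0.174% of all genes. Without adjustment 3 members had a p under 0.05, all lower in males, as did 10.9% of all genes. The log2 difference of males minus females was -0.32 ± 0.09 for Cd68 (interval -0.49 to -0.14, edgeR, adjusted p = 0.197) and -0.06 ± 0.02 for Ids (adjusted p = 0.354). The difference between the sexes in the age effect, tested as an interaction in the 22 early-induced inputs in a fit chosen after seeing the data, gave 0 calls among 37 members by edgeR (8 with an unadjusted p under 0.05, smallest adjusted p = 0.217) and 0 among all 14547 genes (2272, or 15.6%, with an unadjusted p under 0.05).

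Other lysosomal genes were followed by list for context. The 13 cathepsins and their regulators were higher in TRAP in 12 cases and lower in 1 (median 2.23), and 10 and 11 were called higher with age (medians 0.22 and 0.35). Ctss, a cathepsin of phagocytes, was higher by 4.11 in TRAP, 0.74 in old early inputs and 1.01 in old late inputs, close to the values of Laptm5 and Cd68.

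Of 25 other soluble lysosomal proteins, 20 of 24 tested were higher and 1 lower in TRAP (median 1.31), 8 higher in old early inputs (median 0.09), and 12 higher and 1 lower in old late inputs (median 0.20). Lyz2, the lysozyme of macrophages, showed the largest changes of that list with 4.42, 1.83 and 2.45. Of 24 other membrane proteins tested, 16 were higher and 2 lower in TRAP (median 0.60), 6 higher and 3 lower in old early inputs, and 7 higher and 3 lower in old late inputs (median 0.06 in both). Slc15a3 and Slc11a1, transporters of phagocytes, led them in TRAP with 4.22 and 4.02, and Slc38a9, an amino acid sensor, was lower with age (-0.24 and -0.26). The acid pump differed from the members: of 19 V-ATPase subunits tested, 7 were higher and 7 lower in TRAP (median -0.03), from Atp6v0d2 (3.83) and Tcirg1 (2.01) down to Atp6v1h (-0.33). With age, 7 of 18 pump subunits were called higher in old early inputs, and 5 higher and 2 lower in old late inputs.

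Genes that deliver and control the members had smaller median changes. Of 9 genes of mannose 6-phosphate tagging and sorting, 4 were higher and 1 lower in TRAP (median 0.12), and 1 was higher and 2 lower in old early inputs (median -0.04). The sorting receptors went opposite ways: M6pr was higher in TRAP (0.81 ± 0.07, edgeR, adjusted p = 5.53e-08) and in old early inputs (0.16 ± 0.03, adjusted p = 0.00097), while Igf2r was lower in both (-0.46 ± 0.07 and -0.26 ± 0.05, adjusted p = 3.4e-05 and 0.000311). Of 15 tested genes of transcriptional and mTORC1 control, 10 were higher and 3 lower in TRAP (median 0.56), and 3 were higher and 1 lower in old early inputs. Tfeb ran from 7.99 to 13.4 CPM in young inputs (median 9.85), 11.3 to 17 in old early inputs (median 12.5) and 12.7 to 19.4 in old late inputs (median 13.8). It was called higher in TRAP (1.12 ± 0.14, edgeR, adjusted p = 2.47e-06), in old early inputs (0.39 ± 0.09, adjusted p = 0.00124) and in old late inputs (0.55 ± 0.10, adjusted p = 8.14e-05). Mtor, the kinase that holds TFEB in the cytoplasm, was lower in TRAP (-0.87 ± 0.05, edgeR, adjusted p = 2.39e-10) and in old late inputs (-0.21 ± 0.08, adjusted p = 0.0338).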

How the data were processed

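PolyA RNA of 29 hippocampal inputs and 7 TRAP libraries was analysed. The inputs came from separate animals, and the TRAP libraries from the same 7 animals as the old late inputs. The deposited file gives, for each gene and library, estimated counts that the authors marked raw per the file headers, and 77.2% of nonzero values were not whole. The build mm10 and DESeq2 are named in the submitters' processing notes; aligner, counting tool, annotation and strand handling are not given in the sources used here. Members and gene lists were chosen with earlier results of these data known.

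Counts were rounded and fitted with edgeR 4.0.16 in R 4.3.3 (filterByExpr, minimum count 10, TMM, quasi-likelihood test); a Benjamini-Hochberg adjusted p under 0.05 over all genes was called. TRAP against input used the 14 old late libraries with sex; the other comparisons used 1 fit of 29 inputs with group and sex. SE came from the F statistic, and 95% intervals are normal intervals from it. CPM used TMM over all 36 libraries, and levels per kb used GENCODE M21 exon lengths. The same animal's libraries deviated together (r 0.308 to 0.47 in 7 pairs, median -0.0854 between other animals). Members given in full were the 6 highest and 3 lowest log2 fold changes of each comparison, those called lower, Lamp1, Lamp2, Cd68, Psap, Grn, Npc1 and Tmem106b, and the 2 smallest adjusted p where none was called. Of the other genes listed, Lamp5, Lamtor4, Lamtor5 and Map2 were at 0, Atp6v0a2 and Hbb-bt were not found, and Tfec was not tested. Alternatives were other scalings, filters, tools (DESeq2 1.42.0, limma 3.58.1 with voom) and covariates, each sex alone, and each library left out. On simulated data with 14596 genes for TRAP and 14948 for old early against young, 52% and 74% of changes of 0.5 on the log2 scale and 88% and 94% of changes of 1 were recovered. Results of 3 other listed genes are not reported here. A comparison of LAMP protein sequences was not run.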

Additional observations from a re-analysis of the deposited data

Results flagged for a closer look

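In 2 of 111 groups of member values, 1 library lay far from the others. Chance gives about 1 in 20 groups, or 5.55. The 12 old early inputs were not among the groups screened. Aga was highest in old late input replicate 5, at 9.97 CPM with the next at 6.68 and the lowest at 5.05. Galns was lowest in young input replicate 1, at 8.82 CPM with the next at 10.3 and the highest at 11.6. Outside this screen, Mcoln1 was lowest in old early input replicate 5, at 35.6 CPM with the next at 49.4 and the highest at 54.1.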

How the results depend on the processing

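The number of members called in TRAP against input was 33 in the replicate block with the animal as pair, with the same 33 members, and 33 to 34 when 1 library was left out. With upper quartile scaling, which moved the median of all genes from -0.02 to -0.16, it was 29 higher and 4 lower: Galc and Hgsnat lost their calls and Gaa and Smpd1 were called lower. Leaving out 1 library gave 11 to 15 members in old early against young, 18 to 23 in old late against young, 0 to 2 in old late against old early (2 without old early replicate 5) and 0 to 0 between sexes. Females alone gave 6 members in old early against young and males alone 8. With the choroid plexus covariate females also gave 6, but not the same ones. Grn, Lamp1 and Scarb2 were called only without the covariate, and Gla, Npc2 and Lamp2 only with it. In old late against young, females alone gave 12, or 17 with the covariate, and males alone 8. Each of these fits had fewer libraries. In old late against old early, DESeq2 gave 1 (Man2b1), and females alone gave 1 (Hexa), likewise with the covariate. Of 1648 values of named members under alternatives, 1558 kept direction and call, 39 lost a call, 46 gained one and 5 changed sign, none of them called in the main comparison: in old early against young, Psap (-0.01, adjusted p by edgeR 0.892) and Tmem106b (0.00, 0.981) in females alone, Galns (0.00, 0.996) in females with the covariate, and Tpp1 (0.00, 0.989) and Npc1 (-0.06, 0.659) in males alone. Over all 36 libraries the lowest mean counts were those of Aga, Galns and Manba. In young inputs, which both age comparisons use, the lowest means were those of Cd68 (5.11 CPM) and Aga (5.73 CPM). Depth limits all of these most, and for Cd68 this holds in the inputs.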
